A study of Cavia porcellus with 10 samples.

Results

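The genes described here are the CDC-like kinases CLK1, Clk2, Clk3 and CLK4, the cyclins CCNL1 and Ccnl2, and the nuclear speckle genes Pnisr, LUC7L3 and Srrm2, in RNA-seq counts from the sclera, the fibrous outer coat of the eye, of male guinea pigs aged 2 to 3 weeks. They were chosen by name, as the lines of the count table whose symbol, ignoring case, is one of 10 names. Where a name stood on several lines the line with the highest mean count over the 10 libraries was to be taken, but each of the 9 names found stood on 1 line. The match by name made no use of the group difference. The names themselves were put together with earlier results of these libraries known, so that difference may have had a part in them. The 10th name, SON, was not analysed here. The 9 genes are among 17642 lines with a symbol, and all 9 were among the 14683 tested. Symbols are written in the upper and lower case of the table.

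The study set eyes with lens-induced myopia, in which both eyes of an animal were fitted with lenses that bring on nearsightedness, against eyes of untreated animals. Each group had 5 libraries, each from 1 eye. Nothing in the labels says which eyes share an animal, so the p-values measure the spread between these libraries. The sources used here do not give the lens power, the length of wear or the animals' strain.

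Messenger RNA splicing factors gather in nuclear speckles, bodies that store proteins rich in arginine-serine repeats (RS repeats), among them the SR proteins. CLK kinases phosphorylate SR proteins and release them from speckles to sites of transcription. Cyclin L proteins carry RS repeats themselves and pair with the kinase CDK11. Transcripts of CLK1, CLK4 and of many RS-protein genes are known to be spliced in alternative forms, some of them kept in the nucleus with introns or degraded, and counts per gene do not separate these forms.

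Of the 9 genes, 8 rose in the myopic sclera and 1, Clk3, fell, in the edgeR quasi-likelihood test with an adjusted p under 0.05 over all genes tested. Higher calls made up 36.9% of all genes tested and lower calls 35.1%, so 71.9% of genes were called in one or the other direction. In 8 of the 9 genes every myopia library stood above every control library, which was so for 29.8% of all genes tested. The median log2 fold change was 1.40 over the 9 genes and 0.03 over all genes tested. Since the 9 genes were put together with results known, these counts describe them and do not test them as a set. The whole tissue was sequenced, and a change in the number of cells of a type and a change in RNA per cell cannot be told apart.

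**Figure D1:**
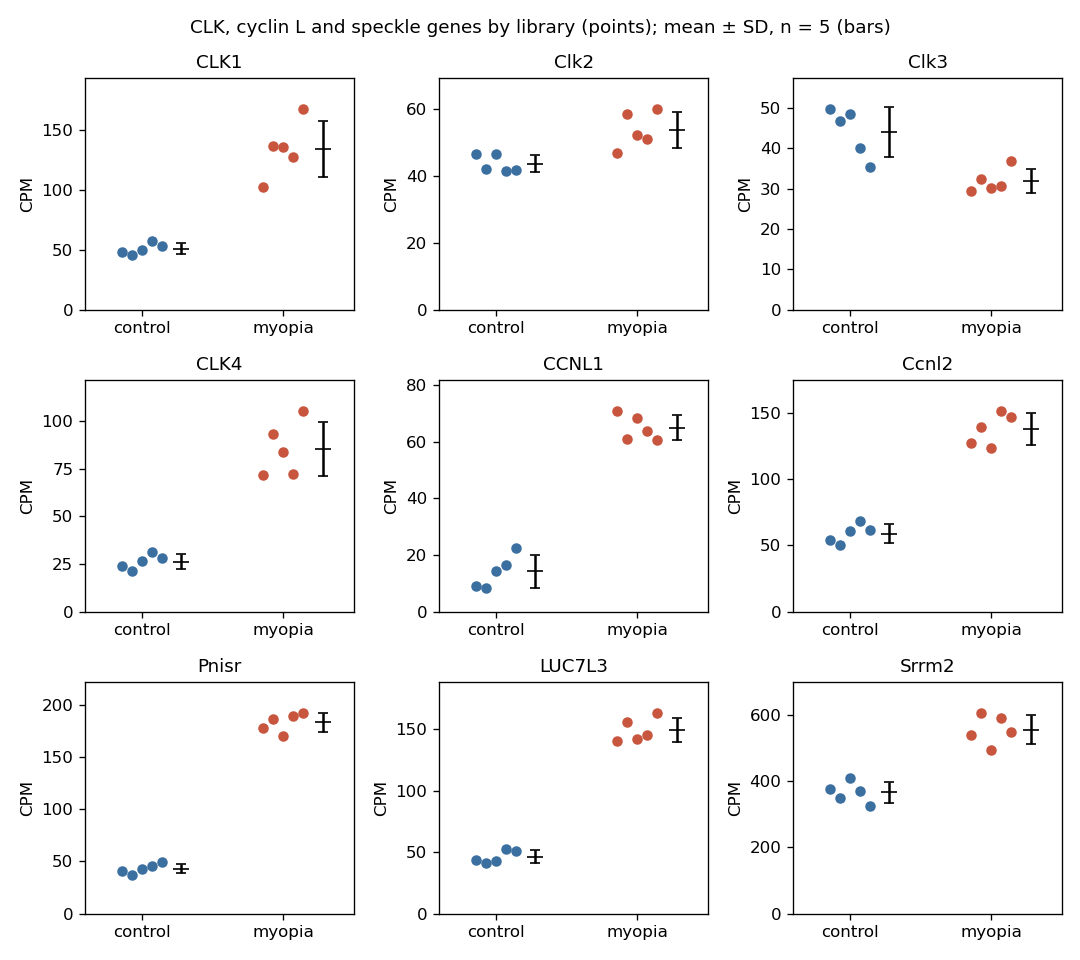
Library-scaled counts (CPM, linear axes from 0) of the 9 genes in the 5 control (blue) and 5 myopia (red) libraries, from library 1 at the left to 5 at the right within each group, with mean ± SD as black bars. The groups are apart in 8 panels, with the narrowest gap for Clk2, and overlap for Clk3.

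CLK1, a kinase of SR proteins, stood at 48.0, 45.9, 49.9, 57.3 and 53.0 CPM (counts scaled to library size with TMM factors) in control libraries 1 to 5. In myopia libraries 1 to 5 it stood at 102.6, 136.6, 135.9, 127.3 and 168.1 CPM. The groups did not overlap, and the lowest myopia library lay 1.79-fold above the highest control library. Its mean rose 2.64-fold, from 50.8 ± 4.47 to 134.1 ± 23.5 CPM (SD, n = 5). The log2 fold change was 1.40 ± 0.12 (SE; adjusted p = 6.71e-07 in edgeR).

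CLK4, the family member closest to CLK1 in sequence, stood at 23.8, 21.1, 26.6, 31.5 and 28.1 CPM in control and at 71.9, 93.1, 83.6, 72.4 and 105.5 CPM in myopia. Every myopia library was at least 2.29-fold above the highest control library, control 4. The log2 fold change was 1.70 ± 0.13 (SE; adjusted p = 4.08e-07 in edgeR), or 3.25-fold. The sources used here do not say how reads matching both CLK1 and CLK4 were counted, so the division of counts between these paralogs is uncertain.

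Clk2, which shares the kinase domain and RS-rich start of the family, rose little. It stood at 46.5, 42.1, 46.6, 41.4 and 41.8 CPM in control and at 47.0, 58.5, 52.2, 51.0 and 60.2 CPM in myopia. The lowest myopia library, myopia 1, lay only 1.008-fold above the highest control library, control 3. Its log2 fold change of 0.30 ± 0.09 (SE; adjusted p = 0.00795 in edgeR) corresponds to 1.23-fold, with a 95% interval of 0.11 to 0.49 on the log2 scale.

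Clk3 was the only one of the 4 kinases with a lower mean in myopia. Its control libraries stood at 49.8, 46.7, 48.4, 39.96 and 35.3 CPM, and its myopia libraries at 29.3, 32.5, 30.2, 30.5 and 36.9 CPM. Control 5 lay below myopia 5, so the groups overlapped by that library. Its log2 fold change was -0.47 ± 0.11 (SE; adjusted p = 0.00178 in edgeR), and the fall was lost under scaling by total count alone (log2 fold change -0.0053, adjusted p = 0.962). Under that scaling the median log2 fold change of all genes tested moved from 0.03 to 0.47, and 73.5% of calls were higher against 51.2% with TMM factors. "Rose" and "fell" are thus relative to the TMM scale. The other 8 genes were called higher under either scaling.

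Within a library the scale cancels from the ratio of one gene to another, and the 4 kinases shifted against each other. Of all counts assigned to CLK genes, CLK1 held 30.9 ± 2.52% in control and 43.8 ± 1.99% in myopia, and CLK4 held 15.9 ± 2.18% and 27.9 ± 1.31% (SD, n = 5). Clk2 went from 26.5 ± 1.30% to 17.7 ± 0.983% and Clk3 from 26.7 ± 3.58% to 10.5 ± 0.746%. These are shares of reads, not of transcript molecules, since longer transcripts give more reads; whether the transcript forms of a gene, and so their lengths, differed between the groups was not tested.

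**Figure D2:**
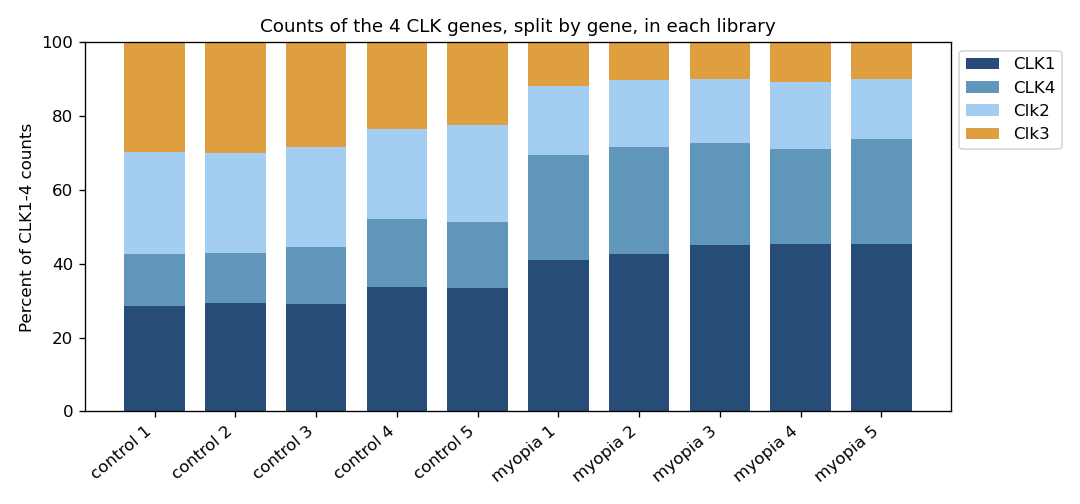
Percent of the counts of the 4 CLK genes held by each gene (stacked bars, adding to 100%) in each of the 10 libraries. CLK1 and CLK4 together fill a larger part of every myopia bar than of any control bar, and Clk3 a smaller one.

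Counts of CLK1 per count of Clk3 lay between 0.964 and 1.503 in the control libraries and between 3.50 and 4.55 in the myopia libraries. The mean log2 ratio rose by 1.84 ± 0.16 (SE). CLK1 over Clk2 rose from 1.03 to 1.38 in control to 2.18 to 2.79 in myopia, a change of 1.09 ± 0.10 in log2 ratio. Even Clk2 rose against Clk3, from ratios of 0.904 to 1.18 to ratios of 1.60 to 1.80, a change of 0.75 ± 0.08 in log2 ratio. The closest pair moved least: CLK1 per CLK4 went from 1.82 to 2.17 in control down to 1.43 to 1.76 in myopia, a change of -0.31 ± 0.07 in log2 ratio, so CLK4 gained on CLK1 in assigned counts. The uncertain division of reads between these paralogs applies to this ratio and to their separate shares. Among the pairs of kinases Clk3 and CLK4 drew apart most, with ratios of 1.25 to 2.21 in control and 0.349 to 0.422 in myopia.

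CCNL1 encodes cyclin L1 and had the largest log2 fold change of the 9 genes. In control it stood at 9.03, 8.32, 14.4, 16.4 and 22.6 CPM, and in myopia at 70.9, 61.1, 68.2, 63.7 and 60.7 CPM. The groups were far apart, the lowest myopia library lying 2.69-fold above control 5. Untreated eyes differed among themselves more in CCNL1 than in the other 8 genes, 2.71-fold from lowest to highest, with a coefficient of variation of 41.3% in control and 6.96% in myopia. Control 2 held 236 counts of CCNL1 and control 5 held 703. The log2 fold change was 2.19 ± 0.23 (SE; adjusted p = 4.13e-06 in edgeR), or 4.58-fold, and 2.63 without control libraries 4 and 5.

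Ccnl2, the second cyclin L, stood at 54.3, 50.1, 60.8, 68.3 and 61.9 CPM in control and at 127.4, 139.6, 123.9, 152.2 and 147.6 CPM in myopia. The myopia libraries all lay at least 1.81-fold above control 4, the highest control library. Its log2 fold change was 1.23 ± 0.10 (SE; adjusted p = 5.05e-07 in edgeR), or 2.34-fold. Of the counts of both cyclins CCNL1 held 18.8 ± 5.12% in control and 32.1 ± 3.30% in myopia (SD, n = 5). Per count of Ccnl2 there were 0.167 to 0.366 counts of CCNL1 in control and 0.411 to 0.557 in myopia, a change of 1.06 ± 0.23 in log2 ratio.

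Pnisr encodes an RS-rich protein that interacts with the SR-related protein pinin, and its p-value ranked 3rd among all genes tested. It stood at 41.0, 37.0, 43.2, 45.2 and 49.6 CPM in control and at 178.5, 186.4, 170.5, 189.6 and 193.0 CPM in myopia. Both groups were tight, with coefficients of variation of 10.9% and 4.94%, and the lowest myopia library lay 3.44-fold above the highest control library. The log2 fold change was 2.09 ± 0.09 (SE; adjusted p = 1.56e-08 in edgeR), or 4.25-fold.

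LUC7L3, a relative of the yeast U1 snRNP protein Luc7, which helps U1 to bind the start of an intron, stood at 43.6, 41.2, 42.8, 53.0 and 50.8 CPM in control. In myopia it stood at 140.3, 156.1, 142.0, 145.8 and 163.8 CPM, so that all 5 libraries were at least 2.65-fold above control 4. Its log2 fold change was 1.69 ± 0.09 (SE; adjusted p = 4.75e-08 in edgeR), or 3.23-fold.

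Srrm2, a large RS-rich scaffold protein at the core of speckles, changed less. It stood at 376, 350, 409, 370 and 324 CPM in control and at 540, 607, 493, 590 and 548 CPM in myopia, and the lowest myopia library, myopia 3, lay 1.21-fold above control 3. Its log2 fold change was 0.60 ± 0.10 (SE; adjusted p = 9.39e-05 in edgeR), or 1.52-fold. Pnisr and LUC7L3 rose against it: there were 0.106 to 0.153 counts of Pnisr per count of Srrm2 in control and 0.307 to 0.352 in myopia, and 0.105 to 0.157 and 0.247 to 0.299 counts of LUC7L3. Pnisr also gained on LUC7L3, from ratios of 0.854 to 1.008 to ratios of 1.18 to 1.30, a change of 0.40 ± 0.05 in log2 ratio.

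In each of the 10 ratios computed (6 among the kinases, 1 between the cyclins, 3 among the speckle genes, those with SON being left out) no myopia library lay within the range of the control libraries. Two-sided exact permutation tests over the 10 libraries gave p = 0.00794 for each, the smallest value that 5 libraries against 5 allow, and the adjusted p over the 10 ratios is 0.00794 as well. The ratios share genes and so are not independent of one another, and they were not set against ratios of other genes.

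**Figure D3:**
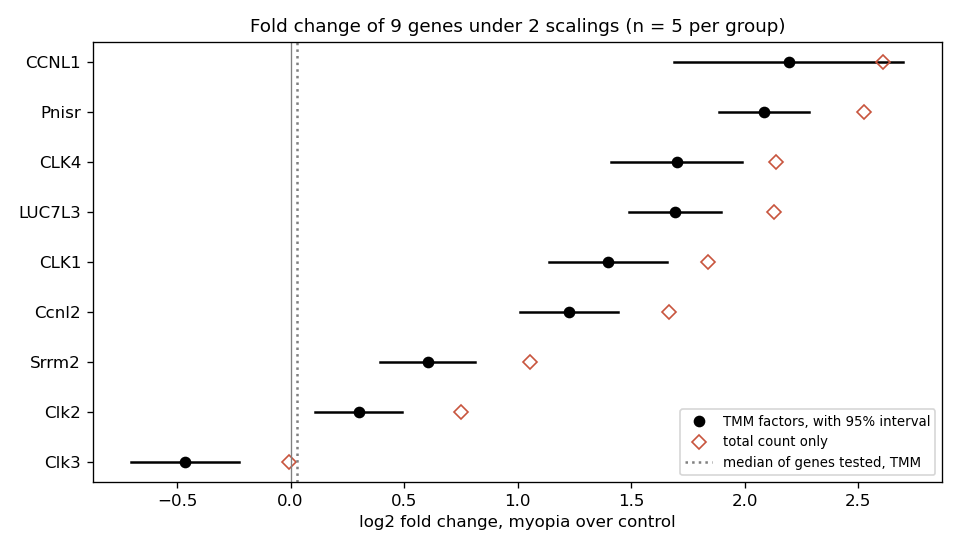
Log2 fold change, myopia over control, of the 9 genes with TMM factors (black points with 95% intervals) and with scaling by total count alone (open red diamonds), in order of size. All diamonds lie to the right of their points, and the diamond of Clk3 lies close to 0.

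The myopia libraries did not vary in the same order for all genes. Myopia 1 was the lowest and myopia 5 the highest myopia library for each of the 4 kinases and for LUC7L3. For CCNL1 it was the reverse, with myopia 1 highest and myopia 5 lowest. In Pnisr, Ccnl2 and Srrm2 the lowest was myopia 3. The spread from lowest to highest myopia library was 1.64-fold for CLK1 and 1.47-fold for CLK4, and between 1.13-fold and 1.28-fold for the other 7 genes.

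Total counts per library lay between 32309258 and 35430797. The main principal component (77.1% of the variance in log2 CPM) spread the control libraries from -94.6 to -24.6, control 5 and control 4 lying nearest to the myopia libraries at 61.5 to 72.5. Lines with ribosomal protein symbols took up 9.76%, 10.04%, 8.72%, 7.59% and 7.01% of control libraries 1 to 5, against 4.30% to 4.80% of the myopia libraries. CCNL1 and Pnisr were highest and Clk3 and Srrm2 lowest in the control library with the lowest ribosomal share, control 5. CLK1, CLK4, Ccnl2 and LUC7L3 were highest in control 4, and Clk2 was lowest there. Srrm2 in control 5 (324 CPM) and Clk2 in control 4 (41.4 CPM) were thus the control values furthest from the myopia libraries. The part of this axis in the results was not tested. Without control libraries 4 and 5 all 9 genes kept their calls, with log2 fold changes of 1.496 for CLK1, 0.27 for Clk2, -0.59 for Clk3, 1.85 for CLK4, 1.34 for Ccnl2, 2.20 for Pnisr, 1.83 for LUC7L3 and 0.57 for Srrm2.

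The labelled tissue was checked against marker lists. Over all genes tested 36.9% were called higher and 35.1% lower (7633 and 2751 of 14683 by total count). All 10 fibroblast markers were measured. Their sum lay between 127082 and 159275 CPM in control and between 72273 and 99982 CPM in myopia. Much of it was COL1A1 (collagen I), which fell from 82728 ± 9358 to 35555 ± 3273 CPM. Of the 10 markers 2 were called higher and 4 lower (5 and 3 by total count). DCN rose from 5690 ± 270 to 7616 ± 1950 CPM and PDGFRA from 91.7 ± 19.5 to 143.2 ± 19.9 CPM. COL1A1, Col3a1, Fmod and THY1 fell, and COL1A2, LUM, PDGFRB and Fn1 were not called. Red blood cell markers fell in 4 of 4 tested cases, from sums of 2504 to 10560 CPM to sums of 100.1 to 455.9 CPM. Leukocyte markers fell in 9 of 11 and rose in 1, with sums of 494 to 694 CPM in control and 217 to 307 CPM in myopia. The 1 that rose was PTPRC, from 8.65 ± 2.46 to 20.5 ± 3.53 CPM. Photoreceptor markers fell in 6 of 8, from 226 to 383 down to 45.7 to 213 CPM, though in 3 of 8 by total count in 3 of 8 without control 5 and in 2 of 8 without control libraries 4 and 5. Summed skeletal muscle markers overlapped between the groups (2470 to 7246 and 2252 to 5232 CPM), as did those of pigment cells (150.9 to 438 and 53.0 to 232 CPM), endothelium (1004 to 1247 and 813 to 1208 CPM) and Schwann cells and glia (5948 to 9581 and 3244 to 9969 CPM). In these 4 lists 2 of 10, 2 of 9, 3 of 7 and 2 of 8 genes were called higher and 3, 3, 2 and 2 lower. By total count 3, 2, 4 and 4 were higher and 0, 1, 0 and 1 lower, and without control libraries 4 and 5 no muscle marker was called lower (0 of 10). Leaving out 1 library left 1 fibroblast marker higher (control 3 or myopia 1, 2 or 3), 1 muscle marker lower (control 3 or 5), 1 endothelial marker lower (control 1, 3 or 5 or myopia 2 or 3) and 1 pigment cell marker higher (control 4 or myopia 3). No marker in the table was at 0 in all libraries. The part of these cells in the changes of the 9 genes was not tested.

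Of other kinases of SR proteins, 5 of 8 rose, 1 fell and 2 did not pass. Their median log2 fold change was 0.37. Beside the counts of this list and the lists below stand 36.9% of all genes tested called higher and 35.1% called lower. By total count 7633 of 14683 genes were called higher and 2751 lower. PRPF4B, a kinase of spliceosome proteins, rose by 1.28 ± 0.08 on the log2 scale, from 39.7 ± 3.83 to 96.5 ± 3.54 CPM. DYRK2 and DYRK1A, kinases of the family next to the CLKs, rose by 0.73 ± 0.08 and 0.80 ± 0.13, while Dyrk1b fell by 1.05 ± 0.11. The cytoplasmic SR kinases SRPK1 and SRPK2 had small rises, from 35.5 ± 2.32 to 45.2 ± 1.16 CPM and from 50.5 ± 5.99 to 65.8 ± 2.63 CPM (SD, n = 5).

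Cdk11b, the kinase partner of cyclin L, was lower where the cyclins were higher. Its level was 121.3 ± 19.5 CPM in control and 89.1 ± 6.78 CPM in myopia. The log2 fold change of -0.44 ± 0.11 (SE; adjusted p = 0.0029 in edgeR) turned to 0.019 with scaling by total count (adjusted p = 0.860). Among 9 measured CDKs and cyclins of transcription 5 rose, 3 fell (1 by total count) and 1 did not pass. Over all genes tested 36.9% rose and 35.1% fell. CDK13 rose by 1.07 ± 0.09 and Ccnt2, a cyclin T that partners CDK9, by 1.97 ± 0.11, while Cdk9 itself fell by 0.96 ± 0.12. CCNT1 rose by 3.41 ± 0.41 from a level near the floor (0.302 ± 0.212 CPM in control, 3.27 ± 0.610 CPM in myopia).

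Phosphatases that remove phosphate from SR proteins, with their nuclear subunits, split evenly, 3 of 6 having risen and 3 fallen (2 by total count). Over all genes tested 36.9% rose and 35.1% fell, also close to an even split. The protein phosphatase 1 catalytic subunit PPP1CA fell from 199.5 ± 27.0 to 97.6 ± 7.15 CPM, and its paralog PPP1CB rose from 82.7 ± 19.1 to 149.8 ± 10.1 CPM. PPP1R8, which directs the enzyme to splicing factors, rose by 0.91 ± 0.14, and the log2 fold change of PPM1G, which fell, was -1.13 ± 0.12 (SE).

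The SR proteins, the substrates of the CLK kinases, with TRA2A and TRA2B, rose in 8 of 12 measured cases, fell in 1 and did not pass in 3. The median of their log2 fold changes was 0.86. By total count 10 of the 12 rose and 1 fell. Over all genes tested 36.9% rose and 35.1% fell, and by total count 7633 of 14683 rose and 2751 fell. SRSF1 rose from 113.5 ± 9.81 to 214.7 ± 13.3 CPM. Srsf10 and TRA2A rose by 1.28 ± 0.10 and 0.89 ± 0.08, and SRSF9 fell by 0.82 ± 0.08 (log2, SE). SRSF2 was not analysed here.

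Other nuclear speckle and RS-rich genes were called in all 22 measured cases, 17 as higher and 5 as lower (17 and 3 by total count). Their median log2 fold change was 0.95. Without control libraries 4 and 5 this list had 15 genes called higher and 5 lower. Over all genes tested 71.9% were called, 36.9% as higher and 35.1% as lower (7633 and 2751 of 14683 by total count). PNN, the pinin to which the PNISR protein binds, rose from 29.1 ± 2.99 to 82.5 ± 4.41 CPM (log2 fold change 1.504 ± 0.088), and SRRM1, a partner of SRRM2 in splicing, from 47.3 ± 4.27 to 75.7 ± 3.21 CPM (0.68 ± 0.08). BCLAF1, PPIG and Prpf38b, each with RS-rich stretches, rose by 1.78 ± 0.11, 1.53 ± 0.10 and 1.46 ± 0.10. The 5 that fell, named after their values were seen, were RNPS1, Scaf1, DDX39B, U2AF2 and Zc3h18. Of these Scaf1 fell furthest, by 1.10 ± 0.11 on the log2 scale, and RNPS1 least, by 0.39 ± 0.07.

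In the list of U1 snRNP and LUC7 genes 4 of 8 rose, 2 fell and 2 did not pass, and 6 rose with scaling by total count. Over all genes tested 36.9% rose and 35.1% fell, and by total count 7633 of 14683 rose and 2751 fell. LUC7L3 rose more than its paralogs in point estimate: Luc7l went from 32.7 ± 2.37 to 56.5 ± 8.46 CPM (log2 fold change 0.79 ± 0.11) and LUC7L2 from 44.2 ± 6.94 to 78.4 ± 6.45 CPM (0.83 ± 0.11), a difference between paralogs that was not tested. Rbm25, which associates with U1, rose by 1.84 ± 0.10, and SNRPA, a core protein of U1, fell by 1.12 ± 0.12. Nonsense-mediated decay factors, which degrade transcripts with early stop codons, rose in 4 of 9 cases and fell in 2 (8 and 1 by total count, and 1 lower without control 1, 3 or 4 or myopia 2, 3 or 5). SMG1 rose from 24.5 ± 2.98 to 99.96 ± 5.24 CPM and Upf2 by 1.33 ± 0.11, SMG5 rose by 0.33 ± 0.10, and Smg9 fell by 1.10 ± 0.13.

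CLK and cyclin L genes are also known to respond to stress and growth signals, so 2 further lists were counted. Of 16 measured immediate early genes 7 were lower (4 by total count) and 2 higher (1 without myopia 4 or 5), and their median was -0.57 on the log2 scale. JUND, JUNB and IER3 fell by 1.97 ± 0.14, 0.95 ± 0.11 and 0.97 ± 0.14, and KLF6 rose by 0.84 ± 0.11 on the log2 scale. Heat shock genes split, with 3 of 10 higher and 4 lower, and 5 higher and 2 lower by total count. The shares over all genes tested were 36.9% higher and 35.1% lower (7633 and 2751 of 14683 by total count). HSP90AA1 and HSPH1 rose by 0.88 ± 0.13 and 0.97 ± 0.12, and Hspb1 and DNAJB1 fell by 1.39 ± 0.13 and 0.86 ± 0.10.

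**Figure D4:**
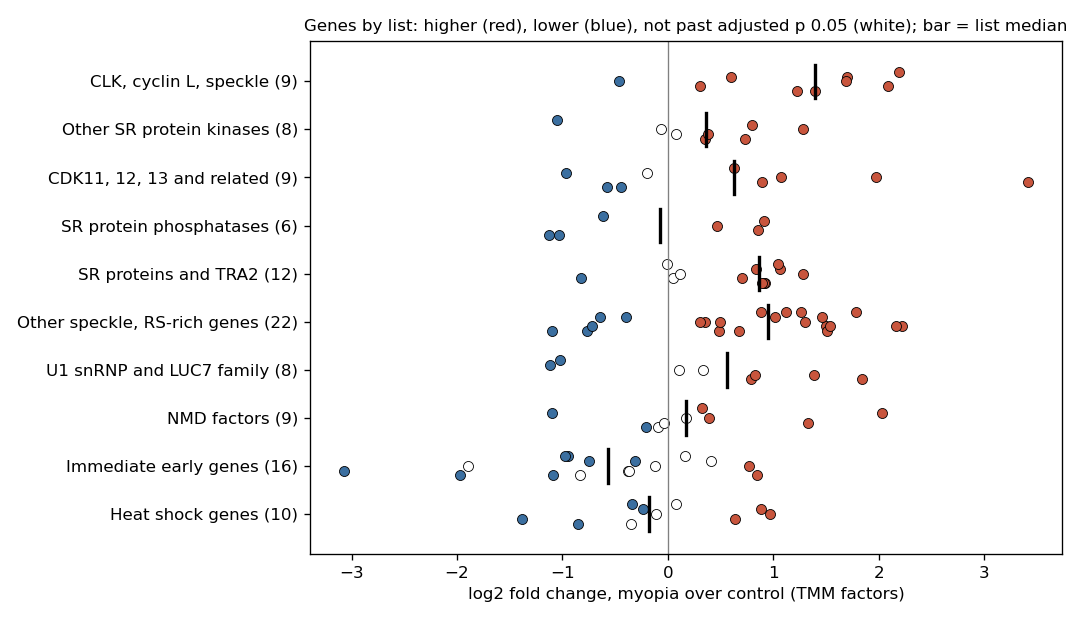
Log2 fold change, myopia over control, with TMM factors, of each measured gene (points) in the 9 genes described here and in 9 other lists, with the number of genes in parentheses. Red and blue points passed an adjusted p of 0.05 as higher or lower, white points did not, and the black bar is the median, which was 1.40 for the 9 genes and lay between -0.57 and 0.95 for the other lists.

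The genes whose levels followed the mean of the 9 most closely within the groups were DDX5, PMP22, LDB2, HNRNPH1 and Spats2, with Pearson r from 0.90 to 0.97 over the 10 libraries after centring each group on its mean, among 9609 genes with at least 10 CPM. These r values rank genes and are given with no test, and the libraries share their depth and scaling factors with the 9 genes. DDX5, an RNA helicase of splicing, was closest and rose from 329 ± 36.4 to 772 ± 63.9 CPM, and HNRNPH1, a splicing regulator, rose from 186.3 ± 27.6 to 411 ± 37.6 CPM (SD, n = 5). LDB2 and Spats2 rose less, by 0.69 ± 0.15 and 0.51 ± 0.14 on the log2 scale. PMP22, a myelin protein, had no called change between the groups with TMM factors (508 ± 43.5 and 495 ± 47.5 CPM, adjusted p = 0.745 in edgeR). By total count PMP22 was called higher (log2 fold change 0.40, adjusted p = 0.0087 in edgeR).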

How the data were processed

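Scleral RNA of 10 eyes was sequenced from libraries made with a SMARTER mRNA kit, per the labels' protocols. The authors deposited raw counts of reads per gene symbol, 1 column per library, matched here to samples by title. The submitters' processing notes name the mouse builds GRCm38 and mm10 without a role. The sources used here do not name the aligner, counter or annotation, nor say whether strand was used. Overlapping, antisense or near-identical genes can therefore share reads, and no gene coordinates or lengths are used. Of 18079 lines, 437 without a symbol (0.751% to 1.69% of counts) were left out.

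Lines kept by filterByExpr in edgeR 4.0.16 (R 4.3.3; minimum count 10, minimum total 15) were tested with TMM factors, glmQLFit (robust) and glmQLFTest on a group factor. P-values were adjusted over all genes (Benjamini-Hochberg) and called under 0.05. Standard errors are the log2 fold change divided by the root of F. Ratios are of counts plus a prior of 2. Replicate pairs differed beyond counting noise (18.1 to 117 in chi-square per degree of freedom). The edgeR step was tested on simulated data.

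The members, lists and alternatives were chosen with earlier results of these data known. The naming rule takes all members, up to 4 called genes of each list by smallest p (marker lists are given mostly as sums and counts), SRPK1, SRPK2, CDK11B, SRRM1, SRSF1, SRSF2 and LUC7L in any case, and the 5 genes most alike in pattern. A gene that the rule selects is not reported here. Alternatives were other scalings and filters, no robust estimation, DESeq2 1.42.0, limma-voom (limma 3.58.1) with and without quality weights, a replicate block, 1 surrogate variable (sva 3.50.0), summed lines, and libraries left out.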

Additional observations from a re-analysis of the deposited data

Results flagged for a closer look

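In 194 groups of 5 libraries (the genes named by the rule and the 10 ratios, in each group) the highest or lowest library was compared with the rest, and 4 stood apart by Dixon's criterion, which flags about 1 in 20 groups by chance. Prpf38b, a splicing factor with RS repeats, stood at 108.6 CPM in myopia 5 and at 81.6 to 89.1 CPM in the other myopia libraries. The pigment cell genes DCT, PMEL and MLANA stood at 19.6, 94.0 and 6.34 CPM in myopia 3, against 4.24 to 8.45, 17.0 to 35.4 and 1.56 to 2.82 CPM in the other myopia libraries. No library stood apart in this way for any of the 9 CLK, cyclin L and speckle genes or their ratios.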

How the results depend on the processing

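The 8 genes called higher were called higher under each of the 23 alternatives, with log2 fold changes of 0.26 to 0.75 for Clk2 and 0.55 to 1.06 for Srrm2 at the low end and 2.06 to 2.63 for CCNL1 at the high end. Clk3 was called lower under 22 of them and not with scaling by total count, where 0 of the 9 genes were called lower and 2751 of all genes tested were (5149 with TMM factors). Leaving out 1 library at a time gave 8 higher and 1 lower in each of 10 fits, and 10133 to 10854 calls over all genes. Control and myopia numbers do not mark the same animals, and same-numbered libraries did not deviate together (r from -0.13 to 0.013). With a replicate block, the 9 calls held and 10103 genes were called. For the ratios, the replicate block gave 0 calls of 10, since sign changes of 5 pairs cannot give a p below 0.0625. With a prior count of 0.5, with lines summed, without control libraries 4 and 5 and without any 1 library, 10 of 10 ratios were called. Cdk11b reversed with total count (0.019). PMP22, not called in the main fit, turned positive with upper quartile factors (0.030), total count (0.40), quality weights (0.0058) and without control libraries 4 and 5 (0.058). By total count PMP22 was called higher (adjusted p = 0.0087 in edgeR). With 1 library left out its log2 fold change ranged from -0.094 to 0.0097. The cause of these shifts was not tested. Counting error is 1.02% to 6.61% at the lowest count of each of the 9 genes.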
